A study of Mus musculus with 22 samples.

Results

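Plasma of doxycycline-induced mice was compared with plasma of control mice to ask whether miRNAs in the circulation differ once tumors have formed in models with engineered alleles that include Brca1 or Brca2. The comparison used 7 of the 22 samples of the series, 4 of tumor plasma (TS1 to TS4) against 3 of control plasma (CS2 to CS4), and CS1 was left out by the study. On these, all mouse miRNAs of the NanoString nCounter panel were counted, in an assay in which a tag is ligated to each miRNA and single fluorescent barcodes are counted. Results are given mainly for the 95 miRNAs with a mean deposited plasma count of at least 50. The other 471 entered the tests, the adjustment of p, the shares quoted over the panel and the summed levels of lists. Some values of miR-34b-3p, which the study followed, are given as well. The members nearest to that limit were miR-1224, with a mean of 51.1 counts, and, just outside it, miR-107 with 47.3.

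The models use a Pax8-driven, doxycycline-inducible Cre, which acts in the secretory cells of the fallopian tube (FT). Controls were not induced but carried floxed alleles as well. CS2 had Brca1 fl/+, CS3 had Brca1 fl/fl and CS4 had Brca2 fl/fl. After induction TS1 had Brca1 -/-, TS3 had Brca2 -/-, and TS2 and TS4 both had Brca2 -/+. All 7 mice carried further engineered alleles, which also varied within both groups. Each sample came from 1 mouse, so genotype varied within both groups, and p-values measure the spread between mice of mixed genotype. Doxycycline exposure and gene loss cannot be told apart. The labels give the source of the TS samples as serum and their tissue as plasma, and no age of the mice is given in the sources used here.

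Plasma miRNAs come from many cells. Red cells, platelets, white cells, endothelium and liver release most of them, either in vesicles or bound to Argonaute and lipoproteins, and a tumor adds to that pool. A miRNA acts through its seed, the bases near the 5′ end that pair with target mRNAs, so members of a family with one seed share most targets. Plasma holds little RNA, and rupture of red cells during collection can change its miRNA content.

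The let-7 family, tumor suppressors that act against Ras, Myc and Hmga2 mRNAs, is shown first because its members went apart within single plasma samples. Sequences here and below are RefSeq mature miRNAs with positions on mouse build GRCm38.p6, and 30 of 36 names looked up were matched. All 8 let-7 members among the 95 share the seed GAGGUAG. Capitals mark letters that differ from let-7b at the same position:
let-7b: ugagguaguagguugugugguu
let-7c: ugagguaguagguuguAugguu
let-7g: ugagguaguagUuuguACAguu
let-7i: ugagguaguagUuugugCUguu
let-7a: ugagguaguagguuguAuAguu
let-7d: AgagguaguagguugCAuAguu
let-7e: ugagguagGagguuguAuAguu
let-7f: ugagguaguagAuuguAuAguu
The last 4 of these end in the same 6 letters, auaguu, and the other 4 do not.

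From the miRNAs with higher means in TS, 7 on which the results turn follow with the seed (bases 2 to 8) in capitals, while miR-375 and miR-126-5p are named only. No seed is shared among the 7.
miR-21: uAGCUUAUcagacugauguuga
miR-342-3p: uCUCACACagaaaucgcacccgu
miR-146a: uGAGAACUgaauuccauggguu
miR-223: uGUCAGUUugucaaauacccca
miR-23a: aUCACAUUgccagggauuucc
miR-27a: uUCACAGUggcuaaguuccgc
miR-126-3p: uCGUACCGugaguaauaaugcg
miR-21 lies on chr11:86584120-86584141 (minus strand), miR-146a on chr11:43374435-43374456 (minus strand), miR-126-3p on chr2:26591402-26591423 (plus strand), miR-342-3p on chr12:108658680-108658702 (plus strand) and miR-223 on chrX:96242884-96242905 (plus strand).

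The miRNAs with the lowest TS over CS values are set beside relatives or cluster partners that were counted in the same samples. miR-15a, miR-15b and miR-16 have the seed AGCAGCA, and miR-29a, miR-29b and miR-29c have AGCACCA.
miR-144: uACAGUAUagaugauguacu
miR-451: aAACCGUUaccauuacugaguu
miR-142-3p: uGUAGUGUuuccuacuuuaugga
miR-103: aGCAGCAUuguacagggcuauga
miR-15a: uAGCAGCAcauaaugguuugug
miR-15b: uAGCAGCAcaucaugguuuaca
miR-16: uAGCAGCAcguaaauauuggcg
miR-29a: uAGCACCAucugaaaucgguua
miR-29b: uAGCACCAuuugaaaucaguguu
miR-29c: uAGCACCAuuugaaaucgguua
miR-144 (chr11:78073047-78073066) and miR-451 (chr11:78073186-78073207) lie next to each other on the plus strand, and miR-15b is on chr3:69009775-69009796 (plus strand).

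The samples differed in how much miRNA they held, and this touches every value below. Counts on miRNAs summed to 36639 in CS2 and 18350 in CS3 but to 214285 in CS4, and to between 94466 and 269005 in TS. Counts were scaled to the top 30 plasma miRNAs of each sample (normalized counts), whose geometric mean spanned 17.8-fold. Probes other than mouse miRNAs took 73.2% and 84.5% of all counts in CS2 and CS3, and 19.7% to 47.0% in the other 5 samples. After scaling, the level of the negative controls (mean plus 2 SD of 8 probes) stood at 145 and 185 normalized counts in CS2 and CS3, and at 16.4 to 67.6 in the rest. By this measure 52 and 56 of the 95 miRNAs were above that level in CS2 and CS3, 91 in CS4 and 77 to 90 in TS. Only 40 were above it in all 7 samples, and 11 were above it in 3 or fewer. Over the 95 miRNAs, log2 normalized counts correlated at r = 0.69 to 0.88 within CS, 0.51 to 0.80 within TS and 0.60 to 0.88 between the groups, where the miRNAs are not independent and the shared abundance order of plasma sets most of r.

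No miRNA passed the adjusted threshold in TS against CS. The edgeR test called 0 miRNAs of the panel (0.0%), and so 0 of the 95, with a lowest adjusted p of 0.542. At an unadjusted p under 0.05, edgeR gave 9 higher (1.59%) and 33 lower (5.83%) miRNAs, of which 7 and 4 were among the 95. These directions turned with the scaling, with 14 higher and 0 lower among the 95 under TMM (32 and 21 over the panel), 20 and 0 under median ratios (43 and 16), and 0 and 9 with the total miRNA count (2 and 186). DESeq2, limma and the methods' t-test also called 0, with 58, 29 and 24 miRNAs at an unadjusted p under 0.05. The standard errors of the log2 fold changes of the 95 ran from 0.70 to 0.92 with a median of 0.84. In simulated data of this design, edgeR called 74% of 200 miRNAs that were changed 8-fold, and 90% of the 30 of these among the 95. Simulated counts were drawn in proportion to the top 30 geometric mean of each sample, with no constant background. The share found in real data can therefore differ.

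Among the 95 miRNAs, 57 had a log2 fold change above 0 (19.3% of the panel did). Their median was 0.32, with a range from -2.27 to 2.18, and the median over the panel was -0.89. The 95 were picked by deposited counts, to which CS2 and CS3 add least. Their difference from the panel is thus in part set by that choice. The split above and below 0 also depends on the scaling. It stood at 60.0% above 0 with the top 30, 35.8% with the total miRNA count, 51.6% with each sample's own 30, 58.9% with quantiles, 73.7% after subtraction of the negative controls, 84.2% with miR-425, 88.4% with TMM, 90.5% with median ratios and 94.7% with the positive ligation controls. The median over the panel moved with it, from -1.35 with the total to 0.38 with the ligation controls, and every fold change below is to be read against these medians. As a scale miR-425 is limited, since it was below the negative control level in CS2 and CS3.

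**Figure D1:**
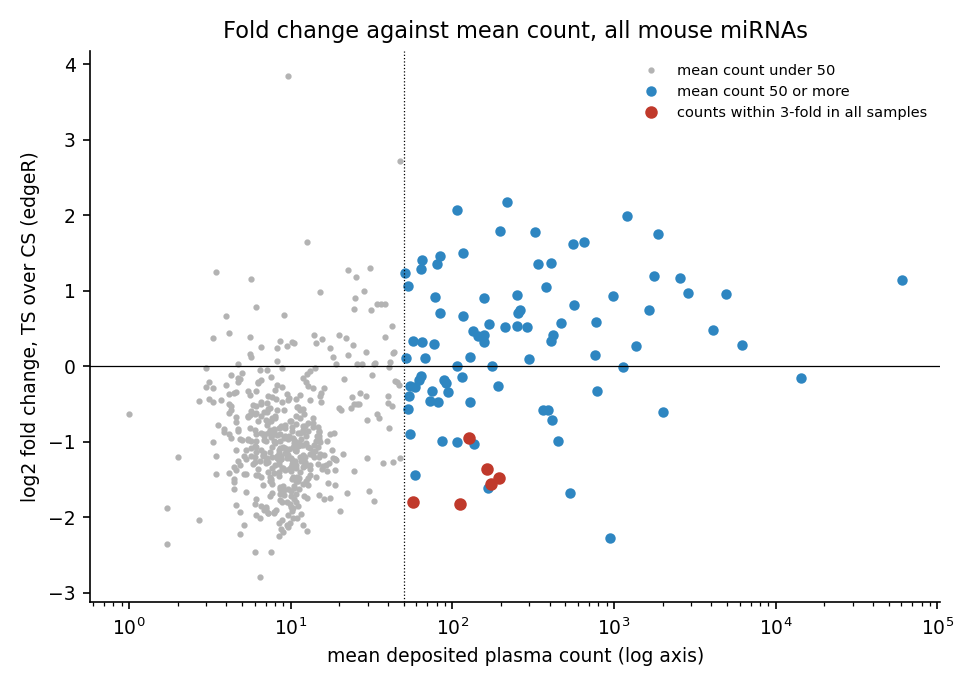
edgeR log2 fold change of TS over CS (vertical axis) against mean deposited plasma count (horizontal log axis) for all mouse miRNAs of the panel, with the 95 at a mean of at least 50 to the right of the dotted line and, in red, the 6 whose deposited counts stayed within 3-fold over all samples. The median is -0.98 for the miRNAs under 50 and 0.32 for the 95, and the 6 in red all lie below 0.

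Separation of the groups was rare. All 4 TS samples were above all 3 CS samples for 4 of the 95 miRNAs (0.707% of the panel), namely let-7b, miR-126-3p, miR-126-5p and miR-27a, and no miRNA outside the 95 did this. All TS were below all CS for another 4 of the 95 (4.59% of the panel), namely miR-103, miR-142-3p, miR-144 and miR-15b, while 22 miRNAs below the count limit did so too. Of these 8 miRNAs, let-7b, miR-126-3p and miR-15b were above the negative control level in all 7 samples, and miR-27a, miR-142-3p and miR-144 in 6. In a two-sided exact permutation test of 4 against 3 samples, whose smallest possible p is 0.0286, 4 of the 95 reached that value, and the lowest p after Benjamini-Hochberg adjustment over the panel was 0.665.

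miR-126 is made from an intron of Egfl7 and is the best known endothelial miRNA, with a role in vessel integrity. miR-126-3p gave 619, 613 and 700.3 normalized counts in the controls (CS2 to CS4) and 953, 1154, 1635 and 1192 in TS1 to TS4. The highest control lay below the lowest TS sample, and the group means were 644 ± 48.6 (SD, n = 3) and 1234 ± 288 (SD, n = 4). The log2 fold change was 0.94 (SE 0.81), with an edgeR adjusted p of 0.580 and an exact permutation p of 0.0286. As a share of all miRNA counts, CS4 lay above TS1 and TS2, so the separation does not hold with every scaling. The other arm, miR-126-5p, gave 66.7, 96.1 and 44.8 in the controls and 149, 163, 334 and 119 in TS. These groups did not overlap either, at a log2 fold change of 1.49 (SE 0.88, edgeR adjusted p = 0.570, exact permutation p = 0.0286). In CS2 and CS3 miR-126-5p was below the negative control level, so its control values there are no measured level. The arms come from one precursor and are not independent of each other.

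let-7b was the most abundant of the 8 miRNAs with separated groups. It reached 848, 1329.9 and 672 normalized counts in CS2 to CS4 and 3767, 3682, 3765 and 1522 in TS1 to TS4. TS1, TS2 and TS3 lay close together and TS4 well under them, but still above the highest control. The log2 fold change was 1.75 (SE 0.81, edgeR adjusted p = 0.542, exact permutation p = 0.0571). miR-27a, encoded with miR-23a and miR-24 in one cluster and known as a regulator of lipid metabolism, gave 181.01, 177 and 209 in CS and 241, 684, 704 and 316 in TS. The gap between the groups was narrow, since TS1 lay just above CS4, and the log2 fold change was 1.36 (SE 0.85, edgeR adjusted p = 0.570).

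The 10 miRNAs with the smallest p in the higher direction all fell short of the adjusted threshold, and for 9 of them TS3 or TS2 was the highest sample. miR-21, an oncogenic miRNA that represses Pdcd4, gave 486, 362 and 827 normalized counts in CS and 656, 1359, 6260.0 and 591 in TS. TS3 alone was far above the controls, while TS1 and TS4 lay within their range. The log2 fold change of miR-21 was 1.98 (SE 0.83, edgeR adjusted p = 0.542, exact permutation p = 0.229), and 0.63 without TS3. miR-146a, which is induced by NF-kB and represses Traf6 and Irak1, gave 111, 140.4 and 85.0 in CS and 146.05, 395, 914 and 82.6 in TS. Again TS3 and TS2 were highest, TS4 was below every control, and the log2 fold change was 1.79 (SE 0.88, edgeR adjusted p = 0.542, exact permutation p = 0.286), and 0.90 without TS3. CS2 and CS3 were below the negative control level for miR-146a, so its control level was measured in CS4 only.

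miR-342-3p, encoded in an intron of Evl and abundant in lymphocytes, had the highest log2 fold change of the 95, 2.18 (SE 0.89, edgeR adjusted p = 0.542, exact permutation p = 0.257). It was counted at 105, 111 and 92.05 in CS and 171, 310.0, 1292 and 80.1 in TS, so that TS3 carried the mean (log2 fold change 0.87 without it) and TS4 was the lowest of all 7 samples. The values of CS2 and CS3 lay below the negative control level. miR-223, a myeloid miRNA that platelets also carry, gave 213, 251 and 100.3 in CS and 437, 588, 1361 and 179 in TS. Here TS4 fell among the controls and the other 3 TS samples above them, with a log2 fold change of 1.78 (SE 0.86, edgeR adjusted p = 0.542), and 1.10 without TS3. miR-23a gave 416, 391.6 and 292 in CS and 581, 1787, 1921 and 315 in TS, the same order with TS4 within the control range, at a log2 fold change of 1.65 (SE 0.84, edgeR adjusted p = 0.542).

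Single samples decided 2 further members of this set. miR-375, a miRNA of pancreatic islets and neuroendocrine cells, was deposited at 652 counts in TS2 and at 7 to 27 in the other 6 samples. TS2 was the only sample above its negative control level, and the log2 fold change of 2.06 turned to -0.98 without it. miR-205, found in stratified epithelium, had 354 counts in TS3, and its log2 fold change of 1.46 became -0.72 without TS3. miR-1944 gave 187, 140.4 and 479 normalized counts in CS and 605, 1539, 1053 and 123 in TS, with 3 TS samples above the controls and TS4 below them (log2 fold change 1.61, SE 0.85, edgeR adjusted p = 0.542).

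**Figure D2:**
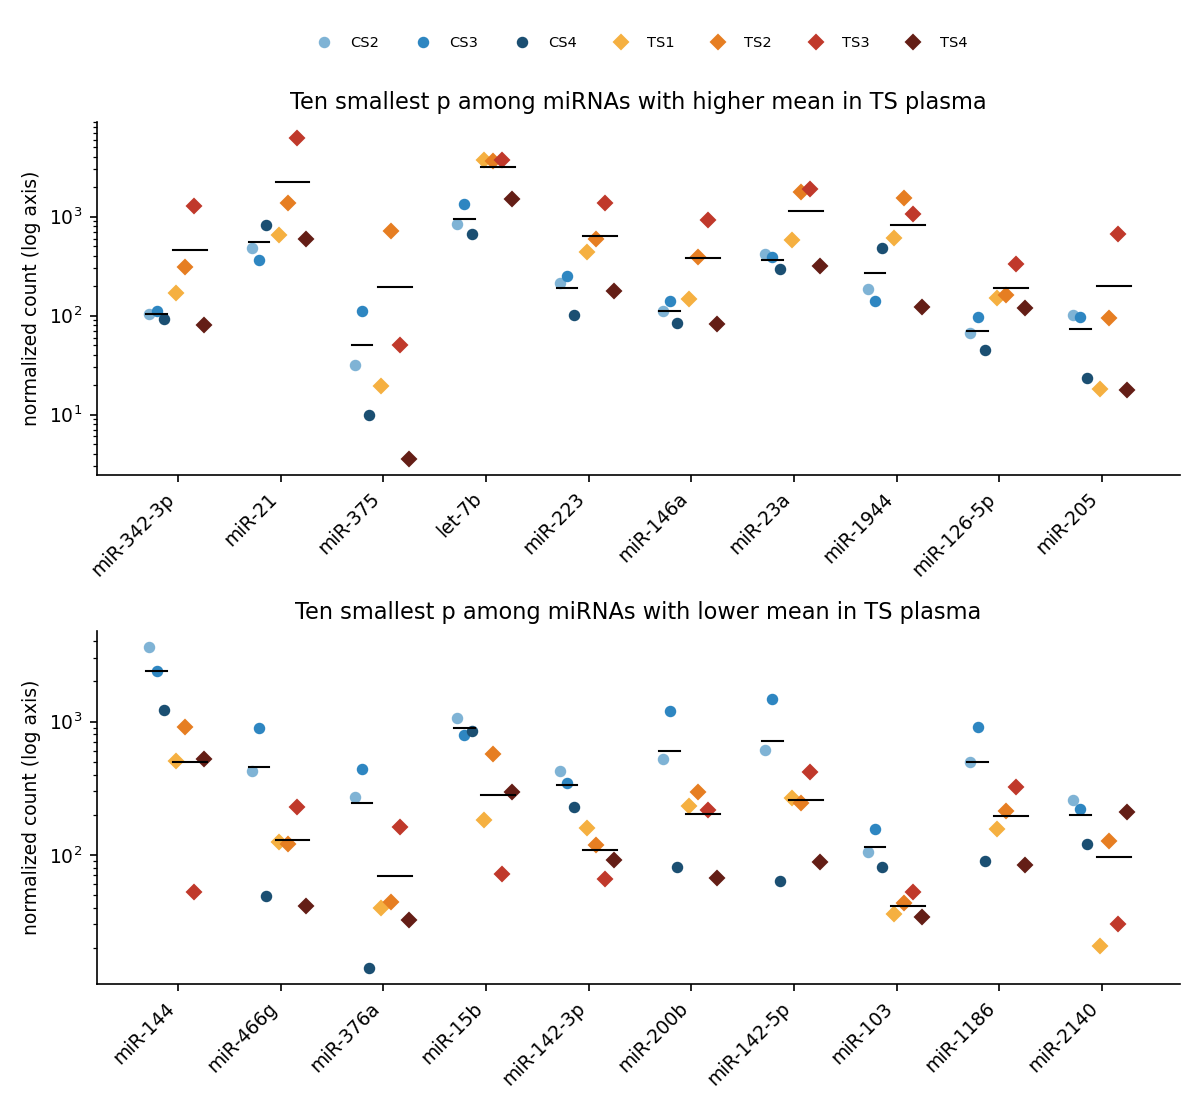
Normalized counts (vertical log axes) in each plasma sample for the 10 miRNAs with the smallest edgeR p among those higher in TS (top) and the 10 among those lower in TS (bottom), circles for CS, diamonds for TS and a short line for each group mean. TS3 is the highest sample for miR-21 (6260.0) and miR-342-3p (1292), TS4 lies within or below the controls for miR-223 (179) and miR-23a (315), and all TS lie below all CS for miR-144.

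On the lower side, miR-144 stood first. It shares an erythroid transcript with miR-451 that GATA1 drives. Normalized counts of miR-144 were 3614, 2379 and 1212 in CS2 to CS4 and 508, 908, 52.6 and 524 in TS1 to TS4, so that every TS sample was below the lowest control. The log2 fold change was -2.27 (SE 0.79), with an edgeR adjusted p of 0.542 and an exact permutation p of 0.0571. Its cluster partner miR-451 gave 29095, 23688 and 10762 in CS and 46732, 14191, 9981 and 4890.3 in TS, where TS1 was the highest of all samples and the groups overlapped (log2 fold change -0.16, SE 0.71). The log2 ratio of miR-144 to miR-451 was -3.01, -3.32 and -3.15 in CS, and -6.52, -3.97, -7.57 and -3.22 in TS. In TS3 miR-144 was below the negative control level, so the ratio there depends on background. The pair of miR-144 and miR-451 was chosen after its values were seen, so the ratio has no test.

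miR-15b, which together with miR-16 represses Bcl2 and cyclins, gave 1061, 791 and 842 in CS and 183, 568, 71.3 and 296 in TS. All TS values were below all controls, TS3 furthest, at a log2 fold change of -1.68 (SE 0.81, edgeR adjusted p = 0.542, exact permutation p = 0.0571). miR-16, its partner with the same seed, gave 10009.5, 8349 and 4261 in CS and 13205, 9530.0, 11849.7 and 1966 in TS, with overlapping groups and a log2 fold change of 0.28 (SE 0.74). miR-15a was at 848, 820.1 and 492 in CS and 393, 649, 71.3 and 330.1 in TS, which overlapped through TS2 (log2 fold change -0.99, SE 0.80). None of the 3 passed the test, and 0 to 2 of them were above 0 by scaling.

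miR-142-3p, a miRNA of all blood cell lineages, gave 426, 347 and 228 in CS and 158, 119, 65.7 and 91.8 in TS. The groups did not overlap, and the log2 fold change was -1.61 (SE 0.83, edgeR adjusted p = 0.542, exact permutation p = 0.0286). miR-103, which represses Dicer and bears on insulin sensitivity, gave 105, 155 and 81.3 in CS and 35.8, 43.5, 52.6 and 34.2 in TS (log2 fold change -1.44, SE 0.84, edgeR adjusted p = 0.570, exact permutation p = 0.0286). Its groups did not overlap, but miR-103 was above the negative control level in 3 samples only, and CS2 and CS3 were not among them. miR-2140 gave 257, 221.7 and 120.2 in CS and 20.7, 127, 30.04 and 209 in TS, with overlap and a log2 fold change of -1.03 (SE 0.83).

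The other members of the lower set had nearly constant deposited counts. For 6 of the 95 miRNAs the highest of the 7 deposited counts was under 3 times the lowest, a limit chosen after the values were seen, whereas the median of that quotient over the 95 was 18.8. miR-142-5p, the other arm of miR-142, was deposited at 153 to 226 counts, miR-466g at 81 to 133, miR-1186 at 114 to 215, miR-200b, which holds epithelial cells in their state by repressing Zeb1, at 115 to 273, miR-1896 at 72 to 199, and miR-376a, from the imprinted Dlk1-Dio3 cluster, at 29 to 86. In these counts CS2 and CS3 were not below the lowest TS sample although their miRNA totals were, and after scaling both stood highest. For miR-466g the normalized counts were 422, 901 and 48.9 in CS and 125.4, 121, 229 and 41.3 in TS. All 6 had log2 fold changes below 0, from -1.82 for miR-466g to -0.95 for miR-1896, and they include 2 of the 4 members with an unadjusted edgeR p under 0.05 in the lower direction. Without CS2 and CS3 the log2 fold changes of miR-466g and miR-142-5p were 1.39 and 2.01. The part of background counts in these values was not tested.

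**Figure D3:**
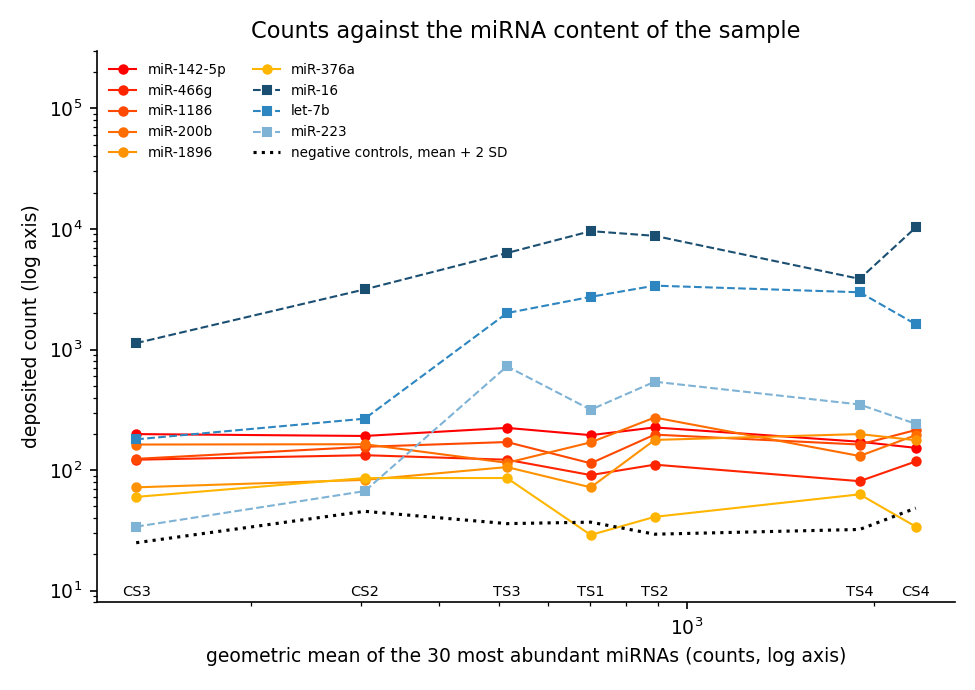
Deposited counts (vertical log axis) against the geometric mean of the top 30 plasma miRNAs (horizontal log axis, samples named along the bottom), solid lines for the 6 nearly constant miRNAs, dashed lines for miR-16, let-7b and miR-223, and a dotted line for the mean plus 2 SD of the negative controls. The solid lines stay level, as miR-142-5p at 153 to 226 counts, while the dashed lines are lowest in CS3 and CS2 on the left.

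Markers of the cells that feed plasma were set side by side. Of the liver list, miR-122, the main miRNA of hepatocytes and a regulator of lipid metabolism, was the most abundant miRNA in 5 of the 7 samples and took 24.6% to 57.6% of all miRNA counts. It gave 28650.3, 35266 and 37054 normalized counts in CS and 36160.3, 101114, 82105 and 79063 in TS. TS1 lay within the controls and the other 3 TS samples above them, with a log2 fold change of 1.15 (SE 0.70, edgeR adjusted p = 0.570, exact permutation p = 0.0857). The other liver members, miR-192 and miR-194, had log2 fold changes of 0.34 and -0.57 (1 to 3 of the 3 liver miRNAs above 0 by scaling).

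The erythrocyte list was divided, with miR-486 (0.26) and miR-16 (0.28) above 0 and miR-451 (-0.16) and miR-144 (-2.27) below, under the top 30 scaling, while 0 to 3 of the 4 were above 0 under the 11 scalings compared. The summed level of the list ran from 17081 to 44989 in CS and from 7721 to 65025 in TS. miR-486, from an intron of Ank1, gave 2271, 2416 and 847 in CS and 4579.8, 949.6, 2982 and 341 in TS, with full overlap (log2 fold change 0.26, SE 0.77, edgeR adjusted p = 0.851). The log2 ratio of miR-451 to miR-23a, in common use as a haemolysis check, was 6.13, 5.92 and 5.20 in CS and 6.33, 2.99, 2.38 and 3.96 in TS, so TS1 stood with the controls and the other TS samples below them. The reference of this ratio, miR-23a, itself had a higher mean in TS (log2 fold change 1.65), so the ratio follows both miRNAs. The part of haemolysis in the differences of red cell miRNAs was not tested.

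All 6 platelet miRNAs (miR-223, miR-126-3p, miR-24, miR-191, miR-21 and miR-199a-3p) had log2 fold changes above 0, from 0.47 to 1.98 with a median of 1.11 (5 or 6 above 0 under all 11 scalings), and 0 passed the adjusted threshold. Summed levels take in list members under the count limit, and the sums were not tested. They were higher in TS without overlap for the platelet list, the endothelium list (both arms of miR-126) and the miR-23/27/24 list. The lists with miR-103 and with miR-181a were lower in TS without overlap, and all other sums overlapped between the groups. In CS2 and CS3 miR-103 was below the negative control level. The platelet sum takes in the high miR-21 value of TS3, and it shares miR-126-3p with the endothelium list. This platelet sum was 1648 to 1967 in CS and 2282 to 10581 in TS, although 5 of the 6 platelet miRNAs overlapped between the groups. miR-199a-3p, for one, gave 229, 236 and 138 in CS and 339, 407, 593 and 202 in TS. The leukocyte list had 4 of its 5 miRNAs among the 95, 2 above 0 (miR-223 and miR-150) and 2 below (both arms of miR-142), with 1 to 3 above 0 by scaling. miR-150, a miRNA of mature lymphocytes, was close to level, with 286, 332 and 312 in CS and 311, 475, 364 and 178 in TS (log2 fold change 0.10, SE 0.82).

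Muscle miRNAs followed single samples. miR-1, which acts in striated muscle, gave 171, 251 and 347 in CS and 325, 1083, 1209 and 35.2 in TS, so TS2 and TS3 were the highest and TS4 the lowest of all samples (log2 fold change 1.37, SE 0.84, exact permutation p = 0.886). The other muscle members among the 95, miR-133a and miR-206, showed the same order, with TS3 highest and TS4 lowest. In the smooth muscle and stroma list, miR-145 gave 251, 288 and 147 in CS and 255, 500.4, 535 and 196 in TS, and its cluster partner miR-143 gave 63.5, 96.1 and 42.3 against 38.6, 272, 163 and 21.9. TS2 and TS3 were again the highest. The brain list and the miR-34 and miR-449 family of ciliated cells had 0 members with a mean count of at least 50.

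**Figure D4:**
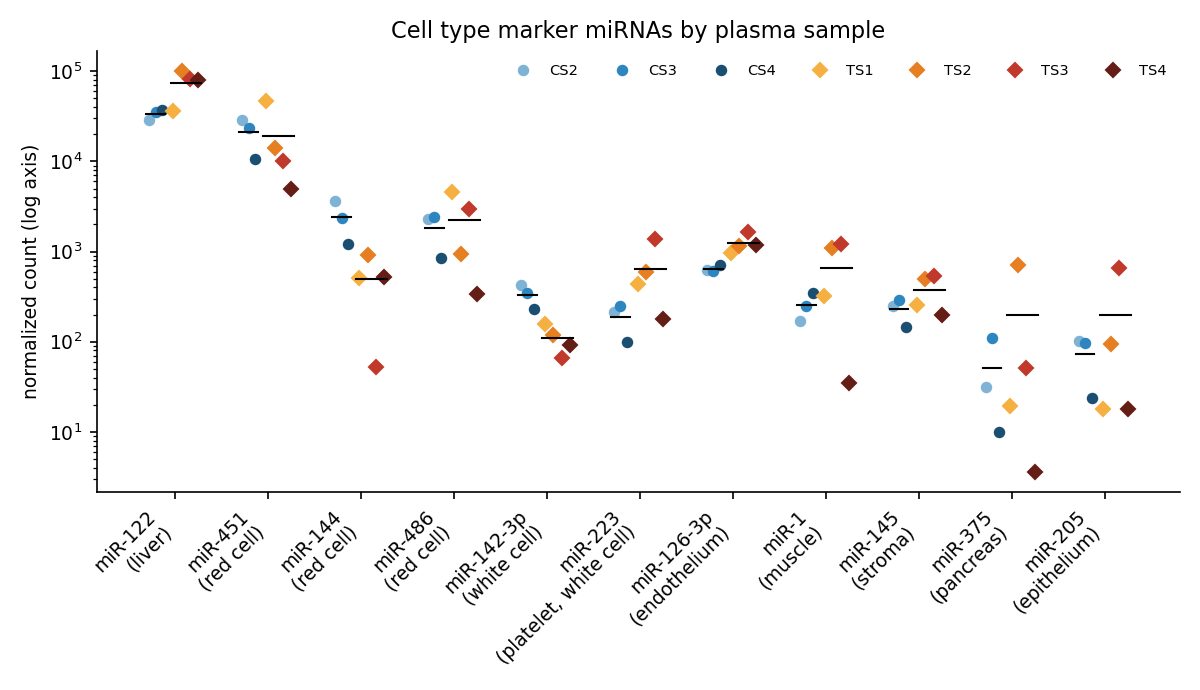
Normalized counts (vertical log axis) of 11 miRNAs that mark a cell type named in brackets, circles for CS, diamonds for TS and a short line for each group mean. miR-126-3p is separated between the groups (613 to 700.3 against 953 to 1635), miR-144 is separated in the other direction, and miR-375 and miR-205 are each high in 1 TS sample.

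Of the miRNAs that the study followed or named, 8 are taken up here. Its candidates were picked in tissue and then by their pattern in plasma of this series, so their direction here is no independent evidence. The study took miR-210 and miR-486 no further because haemolysis was reported to affect them, and miR-425 was its qPCR reference. Of the 8, 6 had a mean count of at least 50. 5 of these 6 had log2 fold changes above 0, namely miR-21, miR-126-3p, miR-146a, miR-1224 and miR-486, with 0 past the adjusted threshold and 4 to 6 above 0 by scaling. miR-1224 gave 57.2, 51.7 and 13.3 in CS and 55.1, 80.5, 192 and 43.4 in TS and was above the negative control level in the 4 TS samples and in no control, so its level in CS, and with it the size of any difference, was not measured. miR-425, a candidate reference miRNA, gave 85.7, 133 and 87.1 in CS and 60.6, 101, 126 and 34.7 in TS (log2 fold change -0.33, SE 0.84). It was below the negative control level in CS2 and CS3, so scaling to miR-425 divides by background in these samples. The other 2 were under the count limit. miR-34b-3p, of the miR-34 and miR-449 family, was not above the negative control level in any sample, and miR-210, induced by hypoxia through HIF1, was above it in 2.

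Families and clusters were mostly divided in direction. Of the 8 let-7 members, 4 were above 0 (let-7b 1.75, let-7c 1.20, let-7g 0.48, let-7a 0.15) and 4 below (let-7e -1.004, let-7f -0.72, let-7d -0.61, let-7i -0.33), with a median of -0.09, and from 2 to all 8 were above 0 under the 11 scalings. The miR-17-92 and related clusters, which drive proliferation, had 5 above and 2 below with a median of 0.33 (2 to 7 above 0 by scaling), and the miR-30 family 2 and 2 (0 to 4 above). The miR-29 family had 2 above and 1 below (0 to 3 above), and the list of miR-125, miR-99 and miR-100 members 2 and 2 (1 to 4 above). The miR-23/27/24 list had 3 above 0 and miR-23b at -0.0023 (3 or 4 above by scaling). In the family of miR-148 and miR-152, which represses Dnmt1, all 3 members were above 0 under all 11 scalings (median 0.90 with the top 30), and TS2 was the highest sample for miR-148a at 7686 normalized counts. In none of these lists did a member pass the adjusted threshold.

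Because every let-7 probe is read in the same sample, ratios within the family do not depend on scaling. They still depend on background, as let-7e in TS2 and let-7a in CS3, TS1 and TS2 were below the negative control level. These pairs were chosen after the values were seen, so they are given with no test. The log2 ratio of let-7f to let-7b was -1.07, -1.54 and -0.60 in CS2 to CS4 and -4.13, -6.30, -5.30 and -1.12 in TS1 to TS4, against -3.56 to -1.49 in the 15 tissue samples. For let-7f TS1, TS2 and TS3 thus lay below every other sample of the series and TS4 with the controls. For let-7d the ratio to let-7b was 1.14, 0.72 and 1.64 in CS and -1.17, -3.84, -4.92 and 1.13 in TS, and the tissue samples, at -3.25 to -0.31, took in TS1 but not TS2 and TS3. For let-7e it was -2.18, -2.68 and -2.68 in CS and -5.64, -6.92, -5.61 and -3.39 in TS (-3.81 to -2.17 in tissue), and here TS4 too was below the controls.

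let-7a, with the same ending, had ratios to let-7b of -1.46, -7.49 and 0.36 in CS and -6.51, -11.72, -4.53 and 0.03 in TS. It was deposited at 1 count in CS3 and in TS2, at 97 in CS2, and at 2086 and 3052 in CS4 and TS4. let-7c, which differs from let-7b by a single letter, stayed near it, with ratios of 0.68, -0.08 and 0.14 in CS and -0.56, -1.44, 0.03 and 0.72 in TS. let-7i and let-7g, whose endings differ from those of both sets, took other courses. let-7i was at 0.50, -0.40 and 0.25 in CS and -1.59, -1.67, -3.74 and -1.62 in TS, without overlap, but the tissue range of -2.33 to -0.22 held all TS samples except TS3. let-7g was lowest in TS2, at -2.51 against 0.78 to 2.17 in the other plasma samples, and tissue ran from -4.38 to 0.23.

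**Figure D5:**
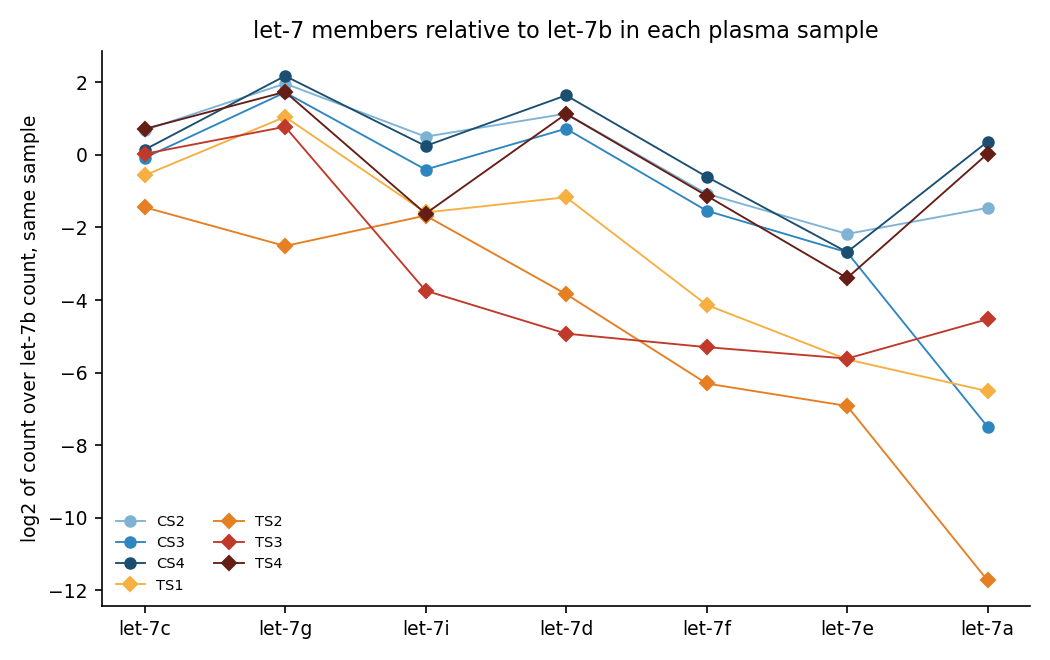
Log2 of the count of each let-7 member over the let-7b count of the same sample (vertical axis), 1 line per plasma sample, circles for CS and diamonds for TS. let-7c stays between -1.44 and 0.72, while let-7d, let-7f, let-7e and let-7a, which end in auaguu, lie far below let-7b in TS2 and TS3, and TS4 follows the controls for let-7d and let-7f. For let-7a, CS3 is also far below let-7b, and TS4 lies near CS4.

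Other relatives went apart in the same samples. The log2 ratio of miR-29b to miR-29a spanned 5.08 over the 7 samples, from -5.42 in TS3 to -0.34 in TS4, while that of miR-29c to miR-29a spanned 0.50. Over the 15 tissue samples both ratios moved, with spans of 4.80 and 3.59. In the sequences above, miR-29a and miR-29c end alike and miR-29b does not. miR-30c over miR-30d spanned 4.37 and miR-30a over miR-30d 0.69 in plasma, against 4.15 and 1.91 in tissue. miR-15a over miR-16 was -3.56, -3.35 and -3.12 in CS and -5.07, -3.88, -7.38 and -2.57 in TS, and miR-23b over miR-23a was lowest in TS3, at -4.44. For miR-29b, miR-30c, miR-15a and miR-23b alike, TS3 or TS2 was the lowest sample of all and TS4 the highest. For miR-15b over miR-16 the lowest was TS3 too, but the highest was CS4 (-2.34). For miR-30b over miR-30d the lowest was TS2 and the highest CS3 (-0.14). Whether these ratios reflect the RNA or the ligation of the tag to miRNA ends was not tested.

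Of 6 probes among the 95 that were listed as possible fragments of other RNAs, 5 had log2 fold changes above 0 (4 to 6 by scaling), and 4 of the 6 were highest in TS4 (miR-720, miR-1937a+miR-1937b, miR-1937c and miR-2141). miR-720, now known to be a tRNA fragment, was deposited at 16277 counts in TS4 and at 49 to 762 in the other samples. The joint probe miR-1937a+miR-1937b had 1460 counts in TS4, and miR-1937c had 716. Scaled by sample, CS3 stood next to TS4 for miR-720, with 2527 against 8304 normalized counts, and the log2 fold change of 1.17 (SE 0.80) had an exact permutation p of 0.943. CS4 and TS4 also held the most signal on the 4 housekeeping mRNA probes, 432 and 204 counts in sum against 17 to 40 in the other samples. The part of cellular RNA in these samples was not tested.

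The plasma contrast was last set against the contrast of induced with control FT, in a test of the difference between both contrasts. edgeR called 0 miRNAs of the panel (0.0%) and so 0 of the 95, and 57 had an unadjusted p under 0.05 (10.1%), among them 15 of the 95, 3 with a higher plasma contrast and 12 with a lower one. With TMM scaling in plasma and tissue that split was 7 and 0. DESeq2 also called 0, with 73 at an unadjusted p under 0.05. The FT contrast alone had 1 call (0.177%), miR-122. Plasma and FT came in part from the same mice, which the test does not take into account. miR-122 had a log2 fold change of 4.74 in FT and 1.15 in plasma (difference -3.59, edgeR adjusted p = 0.396), and miR-142-3p one of 1.06 in FT and -1.61 in plasma (difference -2.67, adjusted p = 0.396). miR-2140 had the smallest p of the 95, at 3.24 in FT and -1.03 in plasma (adjusted p = 0.396). The contrasts lay close for let-7b, 1.89 in FT and 1.75 in plasma (difference -0.14, edgeR adjusted p = 0.955), and for miR-146a, 1.44 and 1.79 (difference 0.35, adjusted p = 0.879). The plasma value of miR-146a is limited, since CS2 and CS3 were below the negative control level. miR-21 was at 0.94 in FT and 1.98 in plasma, and miR-126-3p at 1.92 and 0.94, with adjusted p of the difference of 0.609 and 0.652.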

How the data were processed

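The authors deposited nCounter barcode counts (mouse miRNA assay v1.5, 10 ng plasma RNA) for 626 probes, as whole numbers that do not carry the study's scaling. Any earlier adjustment by the positive or ligation probes is not given in the sources used here. All columns were matched to samples (0 unmatched). Of the probes, 566 were mouse miRNAs and 60 were controls, mRNAs and miRNAs of other species. Each sample was scaled to its geometric mean over the 30 miRNAs with the highest mean plasma count, after the study's methods, which state a lack of background subtraction for tissue. None was subtracted here, and CS1 was not analysed here. The engineered alleles other than those of Brca1 and Brca2 are not reported here. Totals per sample ran from 18350 to 269005, and barcodes are counted without amplification.

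The test of TS against CS was the two-sided quasi-likelihood test of edgeR 4.0.16, run in R 4.3.3 (all 566 miRNAs, Benjamini-Hochberg adjustment, threshold 0.05), and single miRNAs with an exact permutation test of mean log2 normalized counts. FT and control FT, scaled to their top 100, entered the test of the difference. Named miRNAs are the 10 per direction with the smallest p, as fewer than 10 passed the threshold, and 8 of those that the study followed or named. Marker and family lists from general knowledge were added. The members, lists and tests were chosen with earlier results of these data known. Alternatives were other scalings, DESeq2 1.42.0, limma 3.58.1 with pseudocounts of 1 and 10, the methods' t-test, count minimums of 20 and 50, a replicate block and samples left out. The fit was tested on simulated data with 200 of the 566 miRNAs changed, where 74% of these were recovered and 1.99% of calls were false. Sample numbers did not pair the samples (correlation of deviations -0.05, 0.08 and 0.32). Figures used Python 3.11.15.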

Additional observations from a re-analysis of the deposited data

Results flagged for a closer look

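Within the 4 TS samples, 75 miRNAs were checked for a sample far from the others, and 4 were found, where chance gives about 1 in 20. The number found is near that share, and the miRNAs are not independent, so no trait of a sample is read from it. TS4 was the sample in all 4. It was the lowest for let-7b (gap over range 0.975) and miR-19a (0.943) and the highest for miR-2141 (0.893) and miR-720 (0.849). For let-7b TS4 had 1522 normalized counts against 3682 to 3767 in the other TS samples.

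Outside the mouse miRNAs, the probe for cel-miR-248, a worm miRNA, had 712 counts in TS2, above the 32, 97 and 330 counts of CS2, CS3 and CS4. The other TS samples had 204, 11 and 135 counts.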

How the results depend on the processing

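The count of 0 miRNAs past the adjusted threshold was the same under 28 alternatives except the replicate block, and 0 were also called in the difference from FT under each alternative run. With sample numbers as a replicate block, edgeR called 90 miRNAs (2 higher and 88 lower), 2 of the 95 (miR-144, -2.72, and miR-122, 1.38, both with adjusted p = 0.0251) and 2 of the 26 named (miR-144 and miR-34b-3p, the latter with adjusted p = 0.0442). The shared numbers do not pair the mice, whose deviations correlated at -0.05, 0.08 and 0.32, and the fit leaves out TS1, which has no partner. Without any 1 sample 0 were called, but members with an unadjusted edgeR p under 0.05, 11 with all samples, numbered 0 without CS2, 6 without CS3, 7 without TS3 and 22 without TS4. They numbered 2 without CS2 and CS3 and, in a choice made after seeing the data, 21 without CS4 and TS4, the samples with the most miRNA.

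Of 30 miRNAs followed through the alternatives, 17 kept their direction in all, among them miR-21, let-7b, miR-146a, both arms of miR-126, miR-144 and miR-142-3p, although miR-21, miR-342-3p and miR-146a were at 0.63, 0.87 and 0.90 without TS3. 42 of 833 values changed sign. Scaling to the positive ligation controls turned miR-466g (0.25), miR-376a (0.51), miR-200b (0.53), miR-142-5p (0.76), miR-1186 (0.50), miR-2140 (0.90), miR-34b-3p (0.17), miR-425 (0.031) and miR-451 (0.83) above 0. Without CS2 and CS3, miR-466g (1.39), miR-376a (2.28), miR-200b (1.33), miR-142-5p (2.01), miR-1186 (1.12), miR-34b-3p (0.99) and miR-451 (0.82) were above 0. TMM scaling did so for miR-2140 (0.26), miR-425 (0.13) and miR-451 (0.68), and median ratios for miR-2140 (0.36), miR-425 (0.23) and miR-451 (0.76). miR-451 was also above 0 with the top 100 (0.069) and miR-425 (0.40) as scales, and miR-425 after subtraction of the negative controls (0.23). miR-486 went below 0 with the total count (-0.17), quantiles (-0.82), limma (-0.20, and -0.20 with a pseudocount of 10), the methods' t-test (-0.20) and the replicate block (-0.77), and miR-16 with the total count (-0.23), quantiles (-0.33) and the block (-0.22). With 1 sample left out in turn, log2 fold changes ran from -0.98 to 3.31 for miR-375, -0.72 to 1.85 for miR-205, -0.37 to 0.62 for miR-486, -1.13 to 0.16 for miR-451 and -0.0067 to 0.61 for miR-16. The cause was not tested. Depth limits CS2 and CS3 most, since a miRNA under 145 or 185 normalized counts there cannot be told from background.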
